A study of Mus musculus with 2 samples.

Results

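NF-E2 is the DNA-binding complex of a cap'n'collar (CNC) leucine zipper protein, encoded by Nfe2, and a small MAF protein. The genes described here are the CNC activators Nfe2, Nfe2l1 and Nfe2l2, the small MAF genes Mafk, Mafg and Maff, the CNC repressors Bach1 and Bach2, and Keap1, whose product holds NRF2 (the Nfe2l2 protein) for degradation. They are 9 named genes of the 43346 annotated genes in the deposited tables, chosen by symbol, and all 9 were matched. No measured value set the choice, but it was made with earlier results of these data known. Total RNA of more than 200 bases was sequenced from megakaryocyte-erythroid progenitors (MEP), primary cells of male adult C57BL/6J mice aged 5 to 6 weeks that carry no transgene or treatment in the labels. There were 2 libraries of 100 cells each, labelled as biological replicates 1 and 2, with separate biosamples and 1 shared donor record. How many mice were pooled was not given in the sources used here. With 1 group there was no comparison between conditions, no test was possible and no p-value is given. Each value describes these 2 libraries, whose spread may be technical.

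CNC proteins do not bind DNA alone. They pair with a small MAF protein, which has a DNA-binding leucine zipper but no activation domain, and the pair binds MAF recognition elements, also called antioxidant response elements where NRF2 acts. NF-E2 is known for its sites in globin enhancers and for its need in platelet formation. NRF2 drives antioxidant and NADPH-producing enzymes, NRF1 (the Nfe2l1 protein) drives proteasome genes, and BACH1 represses the same class of sites until heme binds it. BACH2 is best known as a repressor in B cells.

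Replicate 1 held 30016974 expected counts and replicate 2 held 51510347, and the 9 genes took 8990 and 17391 of them. The MEP label was set beside 10 markers of MEP and erythroid cells, and all 10 reached 10 TPM, a level scaled for transcript length and library total, in both libraries. The share over protein-coding nuclear genes was 24.7%. The markers were chosen with earlier results of these data known, so this is no independent check of the label. In another list below, the erythroid genes Alas2 and Slc4a1 were under 1 TPM in both libraries. The 10 markers summed to 3658 TPM in replicate 1 against 4385 TPM in replicate 2. Markers of other cells differed between the libraries. The 12 granulocyte and monocyte markers summed to 1901 TPM in replicate 1, with none at 0 counts, and to 7.57 TPM in replicate 2, with 8 at 0 counts (Ngp, Lcn2, Ltf, Mpo, Elane, Ctsg, Fcnb and Csf3r). The 12 B cell markers summed to 10.6 TPM in replicate 1 against 157 TPM in replicate 2, with 2 at 0 counts in the former (Vpreb1 and Vpreb2) and 1 in the latter (Vpreb2). The 8 T and NK cell markers summed to 56.2 and 38.6 TPM. The 10 megakaryocyte markers summed to 28.8 and 33.9 TPM, with Gp6 and Ppbp at 0 counts in both, Pf4 in replicate 1 and Gp1bb in replicate 2, and Itga2b, at 11.5 and 14.5 TPM, was the 1 marker of the list that reached 10 TPM in both. In such bulk samples fewer cells of a type and less RNA per cell cannot be told apart.

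Nfe2 and Nfe2l2 were by far the most abundant of the 9 genes. Of the 9, 5 reached 10 TPM in both libraries (Nfe2, Nfe2l2, Nfe2l1, Mafg and Keap1), against 24.7% of 21461 protein-coding nuclear genes. The count was 4 over transcripts of at least 1000 bases, an alternative chosen after seeing the data that takes Nfe2l1 below 10 TPM, and 7 when protein-coding nuclear genes alone set the TPM scale. The median of the 9 mean levels was 11.6 TPM. The median over all protein-coding nuclear genes was 0.445 TPM, and over the 9982 of them with a mean of at least 1 TPM it was 12.8 TPM, so the 9 genes as a set lay near the middle of the genes that MEP express. Nfe2 stood at or above 95.4% of protein-coding nuclear genes, Nfe2l2 at or above 94.8%, and Maff at or above 46.4%.

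**Figure D1:**
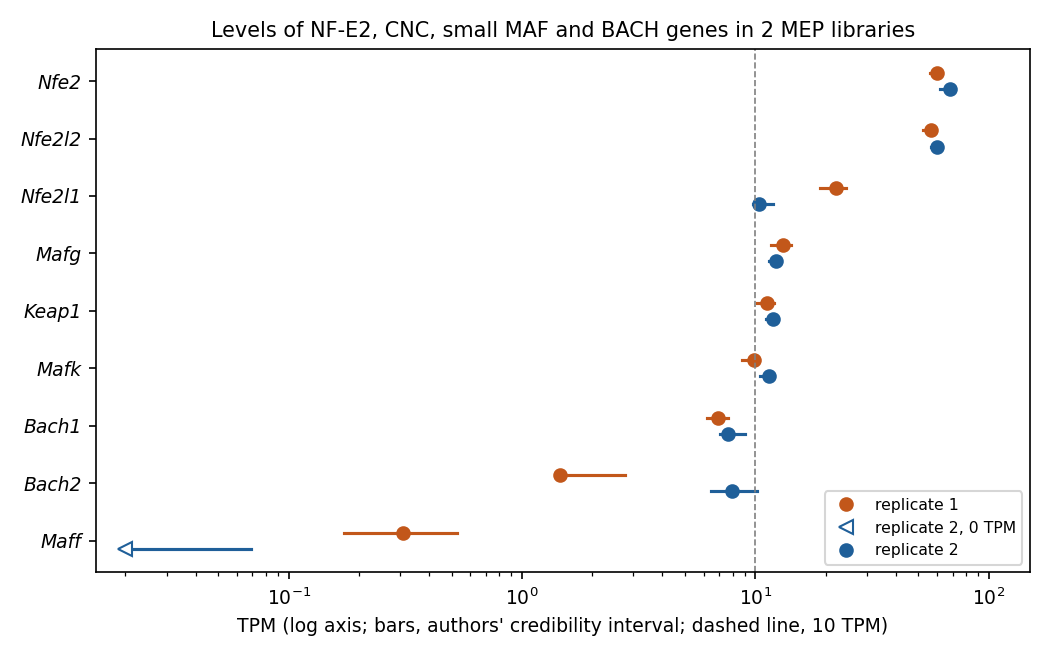
TPM of each gene on a log axis, 1 point per library, with the authors' credibility interval as a bar and a dashed line at 10 TPM. Nfe2 and Nfe2l2 lie between 56.5 and 68.5 TPM, the middle genes near 10 TPM, and Maff is listed at 0 TPM in replicate 2 (open triangle at the left edge).

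Nfe2 (ENSMUSG00000058794.8, GRCm38 chr15:103248212-103258403, minus strand) encodes the blood-restricted subunit of NF-E2. Its level was 60.2 TPM in replicate 1, from 1885 expected counts, and 68.5 TPM in replicate 2, from 3711. The mean was 64.4 ± 5.81 TPM (SD, n = 2). The libraries lay close together: the ratio of replicate 2 to replicate 1 was 1.14 in TPM, with an exact 95% interval of 1.08 to 1.202 that covers counting error only. In CPM, which scales counts to the library total without regard to length, adjusted here with TMM factors, the ratio was 0.997, with an interval of 0.943 to 1.05. TPM ran higher in replicate 2 for genes in general, with a median log2 difference of 0.18 over 11438 genes, and differences between libraries are to be read against that shift.

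Among 53 genes of the bZIP (basic leucine zipper) class, which excludes Keap1, Nfe2 ranked 2 by mean TPM. It was at the top in replicate 1 and below Atf4 in replicate 2. Atf4, the effector of the integrated stress response, measured 58.8 and 87.7 TPM, so its range enclosed both values of Nfe2. Nfe2l2 came next and Atf7 after it, at 48.5 and 54.6 TPM, below both values of Nfe2l2. Atf1 followed at 36.4 and 38.9 TPM. Other CNC and large MAF genes were near or at 0: Nfe2l3, Mafa and Nrl had 0 counts in both libraries, and Maf was at 0.28 and 0.22 TPM. The bZIP genes Atf3, Creb3l4, Creb5 and Batf3 also had 0 counts in both. For a gene without counts, the limit of 3 counts that such a result allows depends on its length, so these genes were not detected at this depth.

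**Figure D2:**
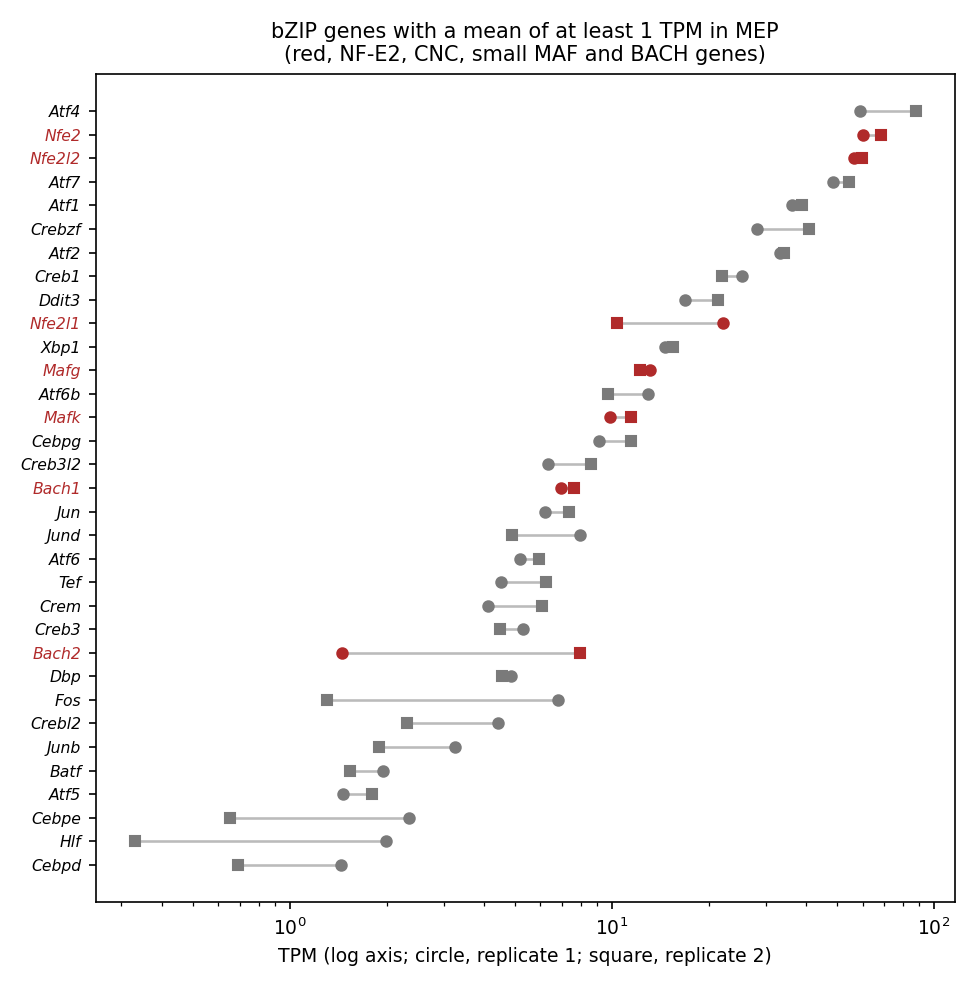
TPM on a log axis of the bZIP genes with a mean of at least 1 TPM, ordered by mean, with a circle for replicate 1, a square for replicate 2 and the genes described here in red. Nfe2 and Nfe2l2 sit directly under Atf4, while Bach2 and Nfe2l1 have the widest gaps between libraries among the red genes.

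The total of Nfe2 was similar in the libraries, but the transcripts to which it was assigned were not. Its 10 annotated transcripts share all or part of their later exons and differ in the first exon, where each model places its start. In Nfe2-207 the first exon runs on into the next without an intron. Starts of transcription were not measured here, so all starts given are those of the annotation. Nfe2-205 (ENSMUST00000133600.3) made up 67.7% of Nfe2 in replicate 1, at 40.8 TPM from 1316 expected counts, and 9.41% in replicate 2, at 6.44 TPM from 358. Nfe2-201 (ENSMUST00000075192.8) made up 9.79% in replicate 1, at 5.90 TPM from 202 expected counts, and 72.9% in replicate 2, at 49.9 TPM from 2952. The order of the leading pair was thus reversed between the libraries. The authors' credibility intervals for Nfe2-205 were 26.2 to 40.2 TPM and 3.68 to 8.80 TPM, and those for Nfe2-201 were 3.55 to 8.20 TPM and 44.9 to 51.0 TPM, so neither pair overlapped. The intervals are built on posterior means, and the value of Nfe2-205 in replicate 1 lay just above its own.

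Nfe2-205 starts 423 bases before the start codon that most of the transcripts share, and Nfe2-201 starts 4397 bases before it, 3974 bases further upstream. The 5 transcripts whose start lies within 1000 bases of that codon, at 423 to 645 bases, held 80.4% of Nfe2 TPM in replicate 1 and 16.5% in replicate 2. The 5 with a start 1768 to 7361 bases away held 19.6% and 83.5%. As shares of expected counts, the near starts held 84.9% and 17.9%. The remaining transcripts were small: Nfe2-207 was at 3.94 and 3.36 TPM, and Nfe2-208 at 3.73 and 1.52 TPM. Nfe2-209 was at 2.62 and 1.47 TPM, Nfe2-206 at 3.28 and 0.93 TPM, and Nfe2-203 at 0 and 4.83 TPM. Nfe2-202, Nfe2-204 and Nfe2-210 were listed at 0 TPM in both libraries.

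The reads that can separate these models come from little sequence. Nfe2-201 has 295 exon bases that no other Nfe2 transcript has. Nfe2-205 has 0 such bases and is told from the rest by 1 splice junction. The authors' posterior mean placed 4.63 TPM on Nfe2-210 in replicate 1, with an interval of 0.000406 to 10.97 TPM, and put Nfe2-205 at 56.8% instead. Over all genes with several transcripts and a mean of at least 5 TPM, the leading transcript differed between the libraries in 27.6% of 5967. Among the genes described here that met these criteria it differed in 3 of 7 (Nfe2, Nfe2l1 and Keap1), which is not read as particular to them.

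**Figure D3:**
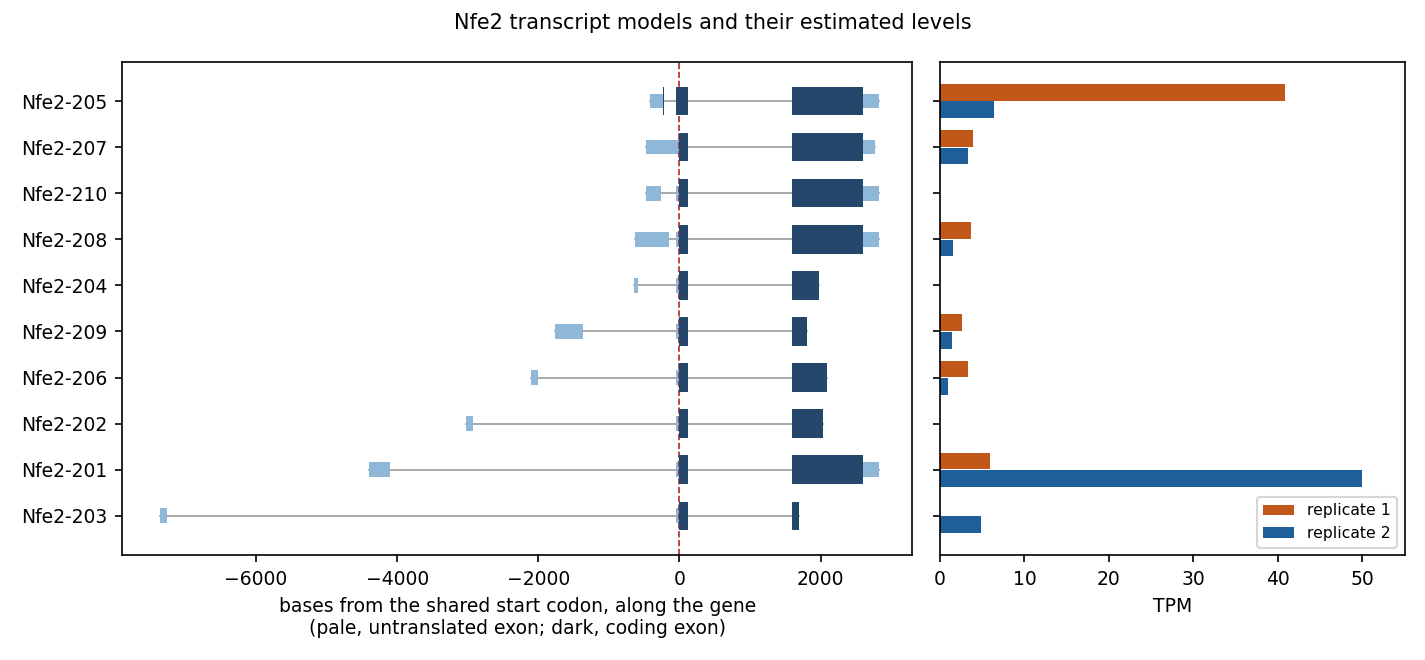
Left, the 10 Nfe2 transcript models by distance in bases from the shared start codon (red dashed line), with untranslated exons pale and coding exons dark. Right, TPM of each in replicate 1 and replicate 2; Nfe2-205 is the longest bar in replicate 1 and Nfe2-201 in replicate 2.

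The pair differs in annotated coding sequence too. Nfe2-201 has 373 codons. Nfe2-205 has 396, because its reading frame is annotated to open in its own first exon at chr15:103251275, 69 bases or 23 codons ahead of the shared start codon at chr15:103251042. The opening stretches of both frames are shown, read from the GENCODE M21 transcript on GRCm38, since they are where the predicted proteins part. Capitals mark the start codons, and the first 13 bases of the upper line lie in the first exon of Nfe2-205.
start of Nfe2-205: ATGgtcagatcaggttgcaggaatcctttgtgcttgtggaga
shared start: ATGcccccgtgtcctcctcagcag
RNA levels do not show which start codon is used.

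Nfe2l2 (ENSMUSG00000015839.6, chr2:75675513-75704641, minus strand) encodes NRF2. It measured 56.5 TPM in replicate 1, from 2765 expected counts, and 60.0 TPM in replicate 2, from 5192, with a mean of 58.2 ± 2.46 TPM (SD, n = 2). Both values lay under both values of Nfe2, by a narrow margin: Nfe2 exceeded Nfe2l2 by a factor of 1.07 in replicate 1 and 1.14 in replicate 2. This order depended on the scale. Over transcripts of at least 1000 bases Nfe2 was at 54.35 and 61.24 TPM, against 56.47 and 59.96 TPM for Nfe2l2, so Nfe2l2 was higher in replicate 1. The full coding transcript Nfe2l2-201 held 89.2% and 93.5%, and the non-coding Nfe2l2-202 held 10.8% and 6.52%, so the leading transcript was the same in both libraries.

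Nfe2l1 (ENSMUSG00000038615.13, chr11:96817414-96829968, minus strand) encodes NRF1, a membrane-anchored factor that must be cut free. It was listed at 22.1 TPM in replicate 1 against 10.4 TPM in replicate 2, a ratio of replicate 1 to replicate 2 of 2.13 with an interval of 1.95 to 2.32. That interval rests on the total counts and leaves out how reads were assigned to transcripts. The expected counts of Nfe2l1, 840 and 1535, give no such difference: in TMM-scaled CPM it was at 30.0 and 27.8, and the ratio of replicate 2 to replicate 1 was 0.925, with an interval of 0.850 to 1.01. The TPM difference sat on 1 short transcript. Nfe2l1-207, a non-coding model of 582 bases with 0 exon bases and 0 junctions of its own, received 120 of the 840 counts in replicate 1 and 55.4% of the TPM, and 0 in replicate 2. Summed over transcripts with a coding sequence, Nfe2l1 was at 9.85 TPM in replicate 1 against 10.4 TPM in replicate 2.

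Of its coding transcripts, Nfe2l1-203 held 16.4% and 40.3% of the gene's TPM, and Nfe2l1-201, with the same 741-codon frame, held 0% and 35.6%. Nfe2l1-212, with a 453-codon frame, held 11.2% and 16.2%. It has 0 exon bases and 0 junctions of its own, as has Nfe2l1-203. With posterior means Nfe2l1-212 held 6.59% and 9.3%. The authors' credibility intervals for it were 0.0105 to 2.68 TPM in replicate 1 and 0.0309 to 1.88 TPM in replicate 2. Their lower bounds lie near 0, so these shares do not establish that Nfe2l1-212 was present. Within the CNC activators, the coding level of Nfe2l1 was several times below Nfe2 and Nfe2l2 in both libraries.

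Of the small MAF genes, Mafg and Mafk were expressed at similar levels and Maff was near the limit of detection. Mafg (ENSMUSG00000051510.9, chr11:120625117-120633600, minus strand) measured 13.1 TPM in replicate 1, from 1129 expected counts, and 12.2 TPM in replicate 2, from 2005. Mafk (ENSMUSG00000018143.6, chr5:139791513-139802653, plus strand) measured 9.85 TPM, from 587 expected counts, and 11.4 TPM, from 1188. The ranges of Mafg and Mafk did not overlap, and Mafg exceeded Mafk by a factor of 1.33 in replicate 1 and 1.07 in replicate 2. Maff (ENSMUSG00000042622.9, chr15:79346621-79359076, plus strand) had 12 counts in replicate 1, or 0.31 TPM, and 0 counts in replicate 2, which allows up to 0.0443 TPM at 3 counts. Against that limit its level was 7.0-fold higher in replicate 1. That figure is no lower bound, since it leaves out the counting error of the 12 counts in replicate 1. The summed granulocyte and monocyte markers were at 1901 TPM in that library and 7.57 TPM in the other, and their part in the Maff counts was not tested.

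The leading transcripts of Mafg and Mafk were the same in both libraries, and the 12 counts of Maff in replicate 1 were assigned to Maff-202. With posterior means Maff-201 held 47.3% and Maff-202 52.7% there, so these counts do not tell the Maff models apart. Mafg-201 held 79.4% and 86.7% of Mafg, Mafg-204 held 9.26% and 13.3%, and the non-coding Mafg-205 held 11.3% in replicate 1, from 9 counts, and 0% in replicate 2. Mafk-201 held 76.0% and 96.4% of Mafk. Mafk-202 begins at a first exon 6001 bases downstream, has the same 156-codon frame, and held 21.7% and 3.64%. Exons of Mafg share 124 bases with Sirt7 on the same strand, which was at 26.0 and 37.3 TPM, so reads there could belong to either gene. Mafk shares 169 exonic bases with Tmem184a on the opposite strand, which was at 0.02 and 0 TPM.

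The core of the antioxidant response element, TGACNNNGC on either strand, was searched in RefSeq promoter windows of GRCm38.p6 that run from 250 bases before a gene's start to 50 after it. Of the 9 genes, 8 had windows, 14 in all. Nfe2 was the one without. The core was found in 1 window each of Nfe2l2, Mafk, Mafg and Maff, and in 12.4% of all 32851 windows. By gene, that is 4 of 8 against 14.0% of 27025 genes. The matches are printed in capitals within the stretch before the RefSeq start. They are shown because these genes include all 3 small MAFs, the partners of the factors that bind such elements.
Nfe2l2, chr2:75704870-75704913, minus strand: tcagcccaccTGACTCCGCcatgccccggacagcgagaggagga
Mafk, chr5:139791498-139791535, plus strand: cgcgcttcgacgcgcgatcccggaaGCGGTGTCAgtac
Mafg, chr11:120633736-120633794, minus strand: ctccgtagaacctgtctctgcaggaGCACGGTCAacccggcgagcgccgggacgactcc
Maff, chr15:79346484-79346542, plus strand: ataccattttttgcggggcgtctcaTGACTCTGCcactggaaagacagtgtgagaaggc
The Mafk and Mafg matches lie on the strand opposite to the gene. The matches begin 240, 13, 222 and 112 bases before the RefSeq start in the order printed. For Mafk the annotations differ: the GENCODE start of Mafk-201 is chr5:139791513, ahead of the match at chr5:139791523-139791531. By that annotation the Mafk match lies after the start and not upstream of it. A match describes letters in the window and is not a measured binding site. Maff carried the core with nearly no RNA, while Nfe2l2 carried it at one of the highest levels of the 9. The AP-1 core TGANTCA was in no window of these genes and in 7.81% of all windows. The partial NF-E2 element TGCTGA was in windows of 3 of the 8 genes (Bach1, Mafk and Nfe2l1), against 21.7% of all genes, and the GATA motif AGATAA in windows of 2 (Keap1 and Maff), against 12.7%. Both were searched on either strand.

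Bach1 was steady and modest, and among the 8 genes with a mean of at least 1 TPM, Bach2 differed most between the libraries in TPM and in TMM-scaled CPM. Bach1 (ENSMUSG00000025612.5, chr16:87698945-87733346, plus strand) encodes the heme-sensing repressor that competes with NF-E2 and NRF2 for sites. It measured 6.94 TPM in replicate 1, from 740 expected counts, and 7.61 TPM in replicate 2, from 1440, a mean of 7.28 ± 0.474 TPM (SD, n = 2). Nfe2 exceeded Bach1 by a factor of 8.68 in replicate 1 and 9.00 in replicate 2. The coding Bach1-201 held 75.9% and 78.1%, and Bach1-203, a model that keeps an intron, held 24.1% and 21.9%.

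Bach2 (ENSMUSG00000040270.12, chr4:32238804-32586108, plus strand) was listed at 1.45 TPM in replicate 1, from 274 expected counts, and 7.97 TPM in replicate 2, from 928. The ratio of replicate 2 to replicate 1 was 5.50 in TPM, with an interval of 4.80 to 6.31, and 1.72 in TMM-scaled CPM, with an interval of 1.497 to 1.97. Both intervals rest on the total counts of Bach2 and leave out how reads were assigned to transcripts, so the TPM interval is too narrow. The authors' credibility intervals were 1.485 to 2.767 TPM in replicate 1 and 6.465 to 10.21 TPM in replicate 2. The replicate 1 value lay just below its own. Replicate 2 was thus higher on both scales, by very different amounts. Bach2-205 and Bach2-206, non-coding models of 336 and 331 bases, received 26.2 and 8 of the 928 counts in replicate 2 and made up 49.3% and 15.5% of the TPM there, and 0% in replicate 1. Over transcripts with a coding sequence Bach2 was at 1.45 and 2.74 TPM. The 2 leading coding models share an 839-codon frame: Bach2-202 was at 0.90 and 0.89 TPM, and Bach2-207 at 0.55 and 1.85 TPM. The summed B cell markers were also higher in replicate 2, at 157 TPM against 10.6 TPM, and their part in the Bach2 difference was not tested. Bach2 shares 537 exonic bases with its antisense gene Bach2os, listed at 0 TPM in both libraries.

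Keap1 (ENSMUSG00000003308.10, chr9:21229730-21239361, minus strand) encodes the adaptor that brings NRF2 to the CUL3 ubiquitin ligase. It measured 11.3 TPM in replicate 1, from 758 expected counts, and 11.9 TPM in replicate 2, from 1392, with a mean of 11.6 ± 0.438 TPM (SD, n = 2). Nfe2l2 exceeded it by a factor of 5.01 in replicate 1 and 5.04 in replicate 2. Its leading transcript changed without a change in coding sequence: Keap1-205 held 90.01% in replicate 1 and 0% in replicate 2, and Keap1-201 held 0% and 94.3%. Both have the same 624-codon frame, start 261 bases apart, and have 254 and 94 exon bases of their own. The authors' intervals were 7.40 to 10.4 TPM against at most 3.76 TPM for Keap1-205, and at most 2.02 TPM against 6.96 to 11.4 TPM for Keap1-201. Keap1-202 held 9.99% and 5.68%. Keap1 shares 510 exonic bases with the antisense gene Gm16754, listed at 0 TPM in both.

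By mean TPM the order was Nfe2, Nfe2l2, Nfe2l1, Mafg, Keap1, Mafk, Bach1, Bach2 and Maff. Neighbours whose library values overlapped, and which are therefore not ordered by these data, were Nfe2l1 and Mafg, Keap1 and Mafk, and Bach1 and Bach2. Over transcripts of at least 1000 bases the values of Nfe2 and Nfe2l2 overlapped too, as did those of Mafg and Keap1. Since CNC proteins need a small MAF partner, the summed RNA of both sides was set side by side. Mafk, Mafg and Maff summed to 23.3 TPM in replicate 1 against 23.7 TPM in replicate 2. Nfe2, Nfe2l1, Nfe2l2, Bach1 and Bach2 summed to 147 and 154 TPM. The small MAF sum was 0.158 of the partner sum in replicate 1 and 0.153 in replicate 2, so partner RNA exceeded small MAF RNA 6.33 and 6.53 times. Nfe2 supplied 40.9% and 44.4% of the partner sum, Nfe2l2 38.4% and 38.8%, and the BACH genes together 5.70% and 10.1%. These are RNA shares and say nothing of protein amounts. They include short non-coding models that received few counts. In replicate 2 Bach2-205 and Bach2-206 gave 3.93 and 1.23 TPM, and in replicate 1 Nfe2l1-207 gave 12.24 TPM. The difference in the BACH share between the libraries is to be read with that limit.

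Between the libraries, 2 of the 8 genes with a mean of at least 1 TPM differed by 2-fold or more in log2(TPM + 1): Nfe2l1, lower in replicate 2 with a log2 difference of -1.02, and Bach2, higher with one of 1.87. Of all 11438 genes with that mean, 11.3% did. In TMM-scaled CPM 0 of 8 passed the same fold, against 7.24% of the 11375 genes with a mean of at least 1 CPM. Of the 1288 genes past the fold in TPM, 477 were also past it in CPM. The median log2 difference of the 8 genes was 0.10, within the general shift of 0.18. With TPM restricted to transcripts of at least 1000 bases, Nfe2l1 was at 8.0 and 9.55 TPM and Bach2 at 1.45 and 2.74 TPM, and no gene passed the fold.

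**Figure D4:**
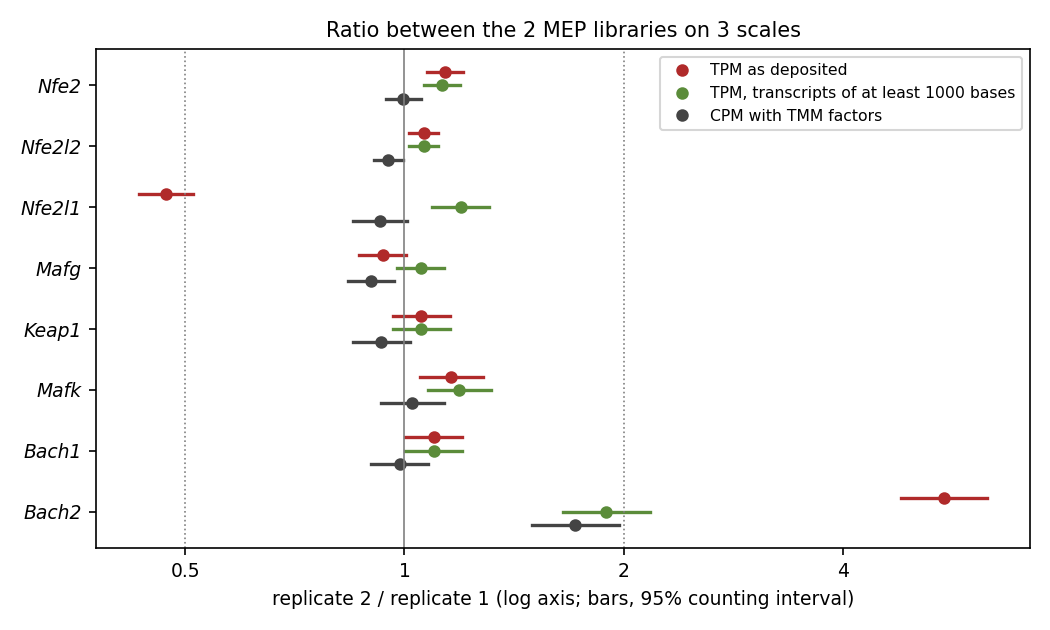
Ratio of replicate 2 to replicate 1 on a log axis for the 8 genes with a mean of at least 1 TPM, on 3 scales, with exact 95% counting intervals and dotted lines at 2-fold. The ratio of Nfe2l1 moves from 0.470 in TPM to 0.925 in CPM and that of Bach2 from 5.50 to 1.72, while the other 6 lie near 1 on every scale.

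Most of the genes listed for the control of these factors after translation reached 10 TPM in both libraries. These lists, and the partner, target, erythroid and platelet lists below, were chosen with earlier results of these data known. Their counts are therefore no independent comparison with the share over all genes. Of 9 genes of KEAP1-dependent and KEAP1-independent NRF2 turnover, 8 reached 10 TPM in both libraries, against 24.7% of protein-coding nuclear genes. None differed by 2-fold, against 11.3% of all genes with a mean of at least 1 TPM. In lists this short, none past 2-fold is near that share and is not read as particular to them. Gsk3a, a kinase that marks NRF2 for destruction, measured 48.8 and 44.5 TPM. Sqstm1, which sequesters KEAP1, measured 54.0 and 32.6 TPM, and Rbx1, the RING subunit of the CUL3 ligase, 35.0 and 45.1 TPM. Of 7 genes of NRF1 processing and turnover, 6 reached 10 TPM in both and none differed by 2-fold, beside the same shares of 24.7% and 11.3%. Among them Vcp, the segregase that extracts NRF1 from the membrane, measured 101 and 87.3 TPM, and Sel1l 21.3 and 17.5 TPM.

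Of 4 genes tied to BACH1 turnover and export, 3 reached 10 TPM in both libraries, against 24.7% of protein-coding nuclear genes. Xpo1, the nuclear exporter, measured 58.7 and 50.2 TPM, and Rbck1, a ubiquitin ligase subunit, 51.2 and 56.6 TPM. Fbxo22, the F-box protein that targets heme-bound BACH1, was past 2-fold, at 10.3 TPM in replicate 1 against 25.1 TPM in replicate 2, and its TMM-scaled CPM was 14.5 and 29.4. Of 7 NF-E2 partners and coactivators, 6 reached 10 TPM in both and none differed by 2-fold. The share over all genes with a mean of at least 1 TPM past 2-fold was 11.3%. The acetyltransferase Ep300 measured 24.4 and 38.9 TPM, and the histone methyltransferase Kmt2d 22.9 and 34.1 TPM.

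Genes known as NRF2 targets ranged from high levels to near 0. Of 20, 15 reached 10 TPM in both libraries, against 24.7% of protein-coding nuclear genes. Srxn1 was below that level, at 1.07 and 1.05 TPM. Of the 16 with a mean of at least 1 TPM, none differed by 2-fold, against 11.3% of all genes with that mean. The median of the list was 28.0 TPM in replicate 1 against 32.2 TPM in replicate 2. The highest were the ferritin subunits Fth1, at 839 and 984 TPM, and Ftl1, at 482 and 716 TPM, and the biliverdin reductase Blvrb, at 298 and 305 TPM. Ferritin genes have processed copies elsewhere in the genome, so their exact levels are uncertain. The 4 under 1 TPM in both libraries are named after their values were seen. Hmox1, the heme oxygenase that BACH1 represses, had 1 count in replicate 1 and 46 in replicate 2, or 0.03 and 0.83 TPM. Slc7a11, the cystine transporter subunit, was at 0.25 and 0 TPM, Me1 at 0.03 and 0.08 TPM, and Osgin1 at 0.06 and 0 TPM. These genes have other regulators too, and their levels do not measure the activity of NRF2 or BACH1.

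Erythroid and platelet genes tied to NF-E2 spanned a wide range in each list. Of 8 erythroid genes with known NF-E2 sites, 6 reached 10 TPM in both libraries, against 24.7% of protein-coding nuclear genes. None of these 6 differed by 2-fold, against 11.3% of all genes with a mean of at least 1 TPM. The globin genes Hba-a2, at 110 and 169 TPM, and Hba-a1, at 118 and 116 TPM, are near-identical copies, so reads may be split between them. The 2 under 1 TPM in both, named after their values were seen, were Alas2, the erythroid enzyme that opens heme synthesis, at 0.88 and 0.07 TPM from 34 and 2 counts, and Slc4a1, the red cell anion exchanger, at 0.18 and 0.21 TPM. Of 5 platelet genes known to need NF-E2, 1 reached 10 TPM in both, near the 24.7% of protein-coding nuclear genes: Lims1, a broadly expressed adaptor, at 24.3 and 24.5 TPM. Tubb1, the platelet tubulin, and Casp12 had 0 counts in both libraries. Tbxas1, the thromboxane synthase, was past 2-fold, at 2.63 and 0.75 TPM, from 137 and 101 counts, and Rab27b was at 0.74 and 0.46 TPM. Tbxas1 was higher in the library with the higher granulocyte and monocyte markers, and their part in it was not tested.

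**Figure D5:**
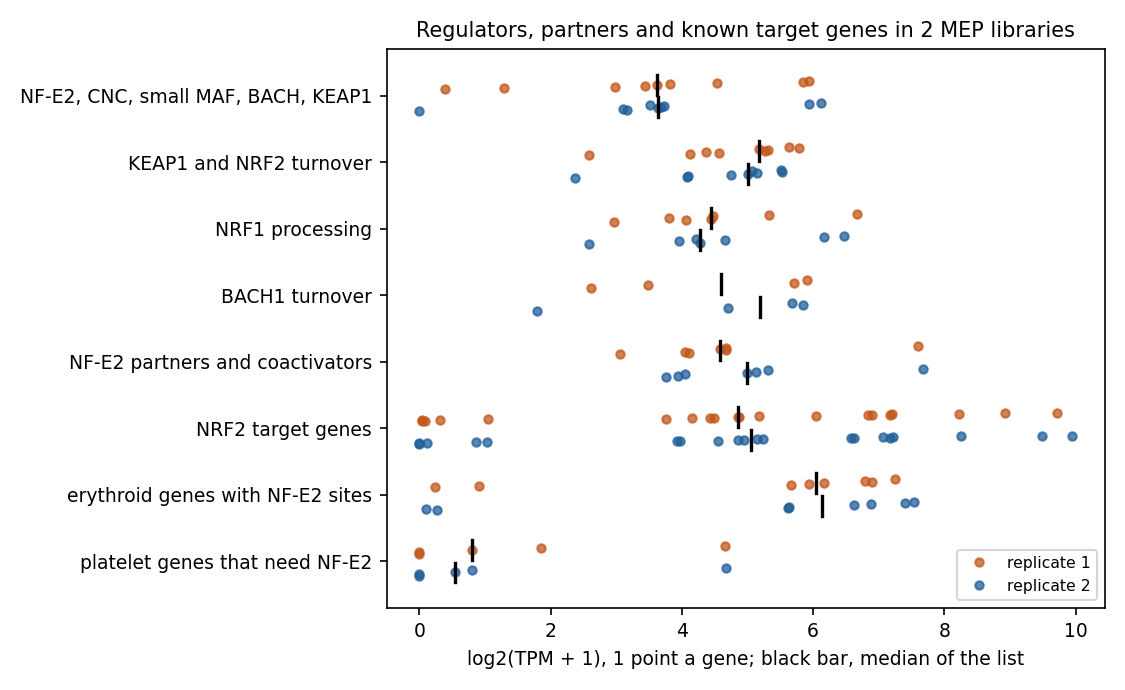
Each point is 1 gene at log2(TPM + 1), replicate 1 above replicate 2 in each list, with a black bar at the list median. Most points of the NRF2 targets lie at 10 TPM or more, with Srxn1 near 1 TPM and 4 genes under 1 TPM. The platelet list has 1 gene, Lims1, at 10 TPM or more.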

How the data were processed

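Total RNA was measured in 2 libraries of 1 group, grouped by the cell type label. Per the README files deposited with the tables, quantification by the authors used mm10 with GENCODE M4; the aligner, quantifier version and strand setting were not given in the sources used here. Expected counts deposited by the authors are estimated reads per gene or transcript and need not be whole. The TPM deposited by the authors corrects for effective length and sums to a constant per library, so a few reads on a short transcript can carry much of a gene's TPM. The authors also deposited each transcript's percent of its gene and the bounds of TPM credibility intervals.

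GENCODE M21 on GRCm38 (the same assembly) gave symbols, exons and coordinates by identifier without version. Of the annotated genes 42462 matched and 884 did not. All 49 transcripts of the 9 genes matched, and 47 had the same length there. Differences between libraries were log2(TPM + 1), replicate 2 minus replicate 1, among genes with a mean of at least 1 TPM; the pseudocount understates changes of low genes. Ratios carry exact Clopper-Pearson intervals (95%) on rounded expected counts. Only counting error is in these intervals and in the limit of 3 counts for a gene at 0, as reads may repeat molecules. The intervals use summed counts and leave out the assignment of reads to transcripts, which also moves TPM. In R 4.3.3, edgeR 4.0.16 gave TMM factors and DESeq2 1.42.0 gave size factors; other steps used Python 3.11.15, numpy 2.4.6, pandas 2.3.3, scipy 1.17.1 and matplotlib 3.10.9. The 2-fold step was tested on simulated data for replicate 2 against replicate 1 with 5759 genes. There, 100 of 100 genes changed 4-fold, 100 of 100 changed 8-fold and 0 of 5559 unchanged genes passed 2-fold. In the measured libraries 11.3% of the 11438 genes with a mean of at least 1 TPM passed it. The simulated counts are therefore not read as an error rate for those genes.

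The 9 genes and all lists were chosen with earlier results of these data known. Named were the 9 genes, every Nfe2 transcript, other transcripts at 10% of their gene, and of each list the 3 highest genes, those past 2-fold and those at 0 counts in both libraries; exceptions are stated, and a few genes it selects are not reported here. Alternatives were other TPM scalings, posterior means, minimums, pseudocounts, filters, CPM scalings and each library alone.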

Additional observations from a re-analysis of the deposited data

How the results depend on the processing

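With 2 libraries of 1 group, spread between conditions cannot be estimated. No paired analysis was possible because there was 1 group. At a minimum of 1 TPM 8 of the 9 genes counted as expressed in both libraries, and at 50 TPM 2 did. The median level of the 9 genes was 27.1 TPM when TPM was rescaled over protein-coding nuclear genes, 11.4 TPM with posterior means and 10.5 TPM over transcripts of at least 1000 bases; with each library alone it was 11.3 to 11.4 TPM. The number of genes past 2-fold was 1 with posterior means, and 0 over transcripts of at least 1000 bases, in CPM with TMM factors and in CPM with DESeq2 size factors. The median log2 difference of the genes was -0.0716 in rescaled TPM, and -0.0465 in CPM with TMM factors and with DESeq2 size factors, which reverses its sign. It was 0.13 with posterior means, 0.14 over transcripts of at least 1000 bases, 0.11 with a pseudocount of 0.1 and 0.0848 with no filter. Over all genes tested on each scale the median was 0.18 in TPM and 0.0101 in rescaled TPM. In CPM it was 0.00975 with TMM factors and 0.00966 with DESeq2 size factors. The cause of these differences was not tested. The small MAF to partner ratio was 0.168 over transcripts of at least 1000 bases and 0.153 to 0.158 with each library alone. The share of Nfe2-205 was 56.8% and 9.27% with posterior means and 69.8% and 9.65% as shares of counts. The limit to transcripts of at least 1000 bases was chosen after seeing the data. Rescaling moved all 9 levels by more than their SD between libraries, and posterior means moved 0 of 9.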

Other observations

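Among the other bZIP genes, 3 of the 26 with a mean of at least 1 TPM were past 2-fold between the libraries, all higher in replicate 1; the share over all genes with that mean was 11.3%. Fos, an immediate-early AP-1 gene, had 6.82 TPM in replicate 1 against 1.30 TPM in replicate 2. Cebpe, a factor of granulocyte maturation, was at 2.35 and 0.65 TPM, and Hlf, a factor known in stem cells, at 1.99 and 0.33 TPM. The same 2 libraries had granulocyte and monocyte markers summing to 1901 and 7.57 TPM; their part in these values was not tested.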
